A study of Mus musculus with 12 samples.

Results

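Hepatic stellate cells were followed through 10 genes that mark these cells or their activation: Acta2, Des, Vim, Pdgfra, Pdgfrb, Lrat, Lox, Loxl2, Tgfb1 and Reln. A gene counted as measured when the platform annotation pairs a probe set with its symbol alone. That was so for 9 of the 10, each with 1 such probe set, out of 19938 genes measured in all. The probe set for Loxl2 carries a second symbol, so no Loxl2 value is given. The values are log2 expression levels from Affymetrix whole-transcript arrays of whole liver, 1 array per mouse. All mice were C57Bl/6J, 10 weeks old at injection, and all received a recombinant adenovirus by vein. In 6 mice the virus carried a scrambled short hairpin RNA (sh scramble). In the other 6 the hairpin was directed at Grb14 (sh Grb14), which encodes an adapter that binds and restrains the insulin receptor. Livers were taken in the fed state on day 7. The control mice therefore carry virus and hairpin too, and livers without virus were not analysed here. The labels do not say which liver cells took up the virus.

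Stellate cells lie between the hepatocytes and the sinusoidal endothelium and store vitamin A as retinyl esters. After injury they lose these stores and become myofibroblasts, which contract and lay down collagen. Platelet-derived growth factor drives their division and migration, and transforming growth factor beta drives their matrix production. In a whole-liver sample, fewer cells of a type and less RNA per cell cannot be told apart, and several of these genes are also active in other cells: vimentin and Tgfb1 in leukocytes and endothelium, Acta2 and desmin in smooth muscle, desmin in skeletal muscle.

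Grb14 itself checked the labels: its log2 level was 10.08 to 10.25 in sh scramble livers and 8.02 to 8.44 in sh Grb14 livers, with no overlap. The difference between the groups was wide. Of the 19938 genes, 65.3% passed limma's test (Benjamini-Hochberg adjusted p under 0.05), 25.8% higher and 39.5% lower in sh Grb14 livers, and the median change of all genes was -0.10. Of the genes past the test 39.5% were higher. Centring each array on its median moved the median change to -0.25 and that share to 23%, so counts of list genes that moved with the scaling are given under it too. Counts in each list stand beside the 25.8% and 39.5% of all genes that were higher and lower. Both shares belong to the arrays as deposited. Centred arrays have only the 23% of rises among genes past the test as background. For arrays quantile normalised again no share of all genes is given, so those counts have no background. Leukocyte markers moved with the groups. In the macrophage and monocyte list 8 of 8 genes rose, and the mean log2 level of the list went from 8.39 to 8.79 in sh scramble livers to 10.17 to 10.35 in sh Grb14 livers. In the T and NK cell list 6 of 7 rose (7.03 to 7.19 against 8.77 to 9.09), as did 5 of 5 neutrophil genes (6.23 to 6.42 against 7.50 to 7.91) and 4 of 4 proliferation genes (7.05 to 7.30 against 9.74 to 10.1). Cd4, the remaining gene of the T and NK cell list, fell by 0.66 (SE 0.053, limma adjusted p = 1.03e-08), without overlap of the groups. Hepatocyte genes went the other way, with 8 of 9 lower, 9 with centred arrays and 7 after a new quantile normalisation (13.26 to 13.38 against 12.31 to 12.76). The hepatocyte falls were unequal. Hal fell by 2.04 (SE 0.13) and Tat by 1.38 (SE 0.13). Cps1 changed by -0.13 (SE 0.034), and by 0.009 after a new quantile normalisation. Alb had a change of 0.036 that did not pass (limma adjusted p = 0.215), and -0.11 with centred arrays (limma adjusted p = 0.00444). No detection call was made, so no marker can be called absent. Mice are numbered here by the order of their arrays within each group. The array of sh scramble mouse 6 stood apart in skeletal muscle genes. All 18 genes of a skeletal muscle list were highest on it, with a mean of 8.98 against 6.52 to 6.93 on the other 11 arrays. Ckm, muscle creatine kinase, was 10.06 there and at most 7.58 elsewhere, and Acta1, skeletal muscle actin, was 10.15 against at most 7.94.

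All 9 measured stellate cell genes passed the test. Of them 7 were higher in sh Grb14 livers (background 25.8%) and 2 were lower (background 39.5%). The activation genes Lox, Acta2, Vim and Tgfb1 rose most, Pdgfrb, Des and Pdgfra rose less, and Lrat and Reln fell. The median change of the 9 genes was 0.86, against -0.10 for all genes. The groups did not overlap for 6 of the 9 genes (41.2% of all genes), 5 of those that rose (20.3% of all genes) and 1 of those that fell (20.8% of all genes).

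**Figure D1:**
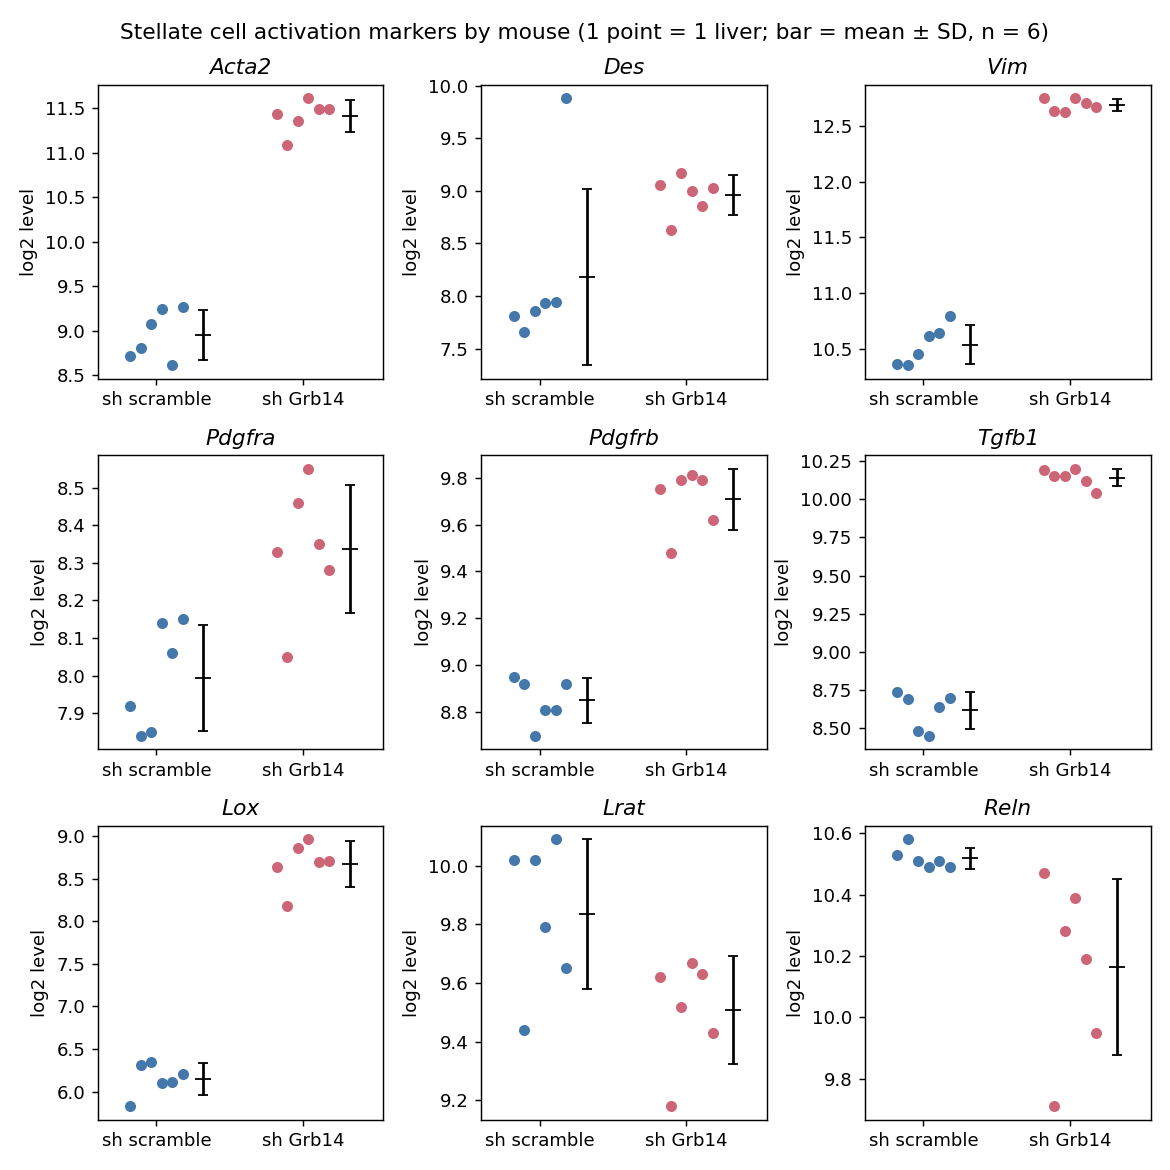
Log2 level of each stellate cell gene in every liver. Each panel has its own vertical axis, which does not start at 0; blue points are sh scramble and red points sh Grb14 livers, and bars show the mean and SD of 6 livers. Acta2, Vim, Pdgfrb, Tgfb1 and Lox separate the groups, a single sh scramble liver is high for Des, and Reln spreads widely in sh Grb14 livers.

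**Figure D2:**
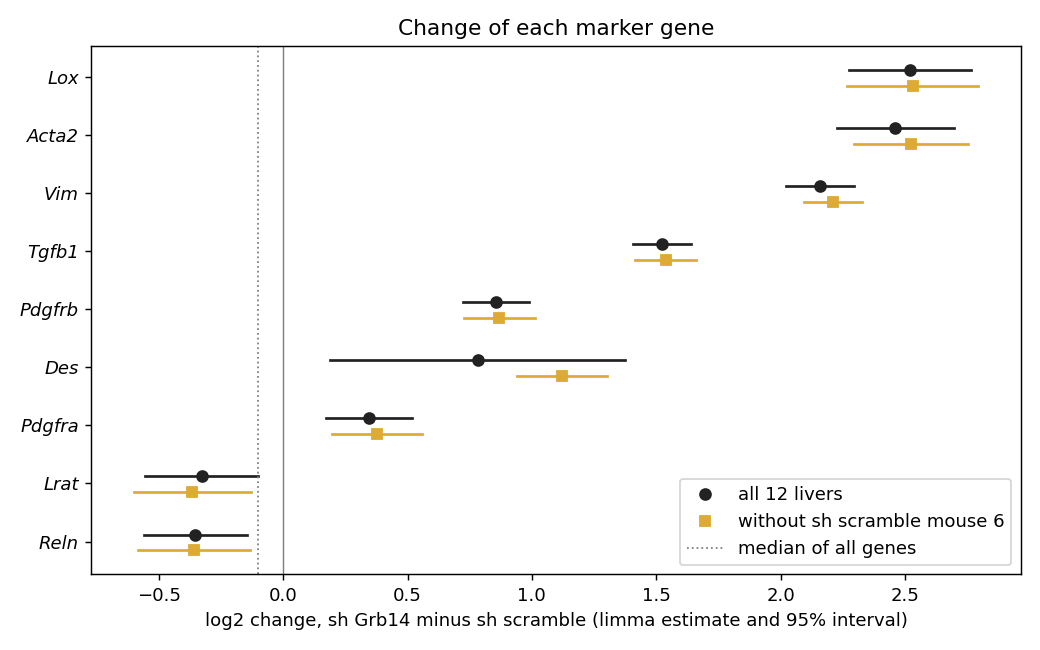
Log2 change of each stellate cell gene, sh Grb14 minus sh scramble, with limma's 95% interval, from all 12 livers (black) and without sh scramble mouse 6 (yellow). The dotted line is the median of all genes, -0.10. Leaving out that mouse moves Des from 0.78 to 1.12 and narrows its interval.

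Acta2 encodes smooth muscle alpha-actin, the contractile filament that appears when stellate cells become myofibroblasts. Its lowest, median and highest log2 levels were 8.61, 8.94 and 9.26 in sh scramble livers and 11.08, 11.46 and 11.61 in sh Grb14 livers. Every sh Grb14 liver lay well above every sh scramble liver. Acta2 rose 5.51-fold (log2 2.46, SE 0.11, limma adjusted p = 7.05e-12). An exact permutation test of the group means gave p = 0.00216, the smallest that 6 against 6 mice allow. It was the gene of rank 117 among the 19938 when ordered from the greatest rise down.

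The promoter of Acta2 is shown because serum response factor, which switches on contractile genes, acts on it through CArG boxes, and because genes of that route were measured here. The 250 bases before its start (RefSeq, GRCm38.p6, chr19:34255374-34255623, minus strand) hold no exact CArG box and 2 matches with 1 letter off, in capitals:
Acta2: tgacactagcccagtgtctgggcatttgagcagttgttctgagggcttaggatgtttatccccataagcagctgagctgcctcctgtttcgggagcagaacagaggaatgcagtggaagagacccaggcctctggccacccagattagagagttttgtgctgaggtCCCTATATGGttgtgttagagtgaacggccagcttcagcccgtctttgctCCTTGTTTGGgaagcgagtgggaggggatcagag
A CArG box with at most 1 letter off was found on either strand in 18.6% of all 32851 promoters of this length, and an exact box in 1.47%. Such a match is a description of the letters. Of the 10 genes, 7 had an entry in the promoter table (Pdgfrb, Lox and Loxl2 had none), and 0 of these 7 held an exact box and 2, Acta2 and Lrat, a match with 1 letter off.

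Srf, the serum response factor gene, rose by 0.42 (SE 0.041), and its coactivator genes Mrtfa and Mrtfb rose by 0.66 (SE 0.062) and 0.54 (SE 0.079). Myocd, the cardiac and smooth muscle coactivator, had a change of -0.14 that did not pass (limma adjusted p = 0.0966; -0.28 and adjusted p = 0.00107 with centred arrays). Among 16 smooth muscle contractile genes, that route included, 10 went up, 3 down and 3 missed the threshold, with a median change of 0.31 (8 up and 5 down with centred arrays). Tagln, the actin-binding protein transgelin, rose 2.85-fold, from 7.80 ± 0.089 to 9.31 ± 0.18 (SD, n = 6 each). Myl9, a myosin light chain, rose by 1.17 (SE 0.081) and Actg2, smooth muscle gamma-actin, by 0.83 (SE 0.092). The 3 that fell were Synpo2 (-0.46), Mylk, the kinase of myosin light chains (-0.42), and Lmod1, leiomodin (-0.26). Of 5 defining genes of vascular smooth muscle, 3 were higher (Actg2, Cnn1 and Myh11, the last not with centred or newly quantile normalised arrays), Lmod1 was lower and Myocd did not pass (2 up and 2 down with centred arrays). All 5 are also in the contractile list, and Tagln, Myl9 and Tpm2 are also in the activated cell list read below. The counts of these lists are therefore not independent. The mean of the vascular smooth muscle list was 6.81 to 7.10 in sh scramble and 6.99 to 7.49 in sh Grb14 livers, so the groups overlapped. Its part in the rise of Acta2 was not tested.

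Des encodes desmin, the muscle-type intermediate filament that also marks rodent stellate cells. In sh scramble livers its lowest and median levels were 7.66 and 7.89, and its highest was 9.88, in mouse 6. The other 5 sh scramble livers stayed at or below 7.94. In sh Grb14 livers the lowest, median and highest levels were 8.63, 9.02 and 9.17. The groups overlapped through the single high sh scramble liver. With all mice Des rose by 0.78 (SE 0.28, 95% interval 0.19 to 1.38, limma adjusted p = 0.0227), whereas the exact permutation test gave p = 0.0541. Without sh scramble mouse 6 it rose by 1.12 (SE 0.085, interval 0.94 to 1.30), 2.18-fold, with no overlap (limma adjusted p = 9.77e-09; exact permutation p = 0.00216). The call was lost when sh scramble mouse 1 or mouse 2 was left out with mouse 6 kept (0.71 and 0.68, limma adjusted p = 0.0508 and 0.0548).

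**Figure D3:**
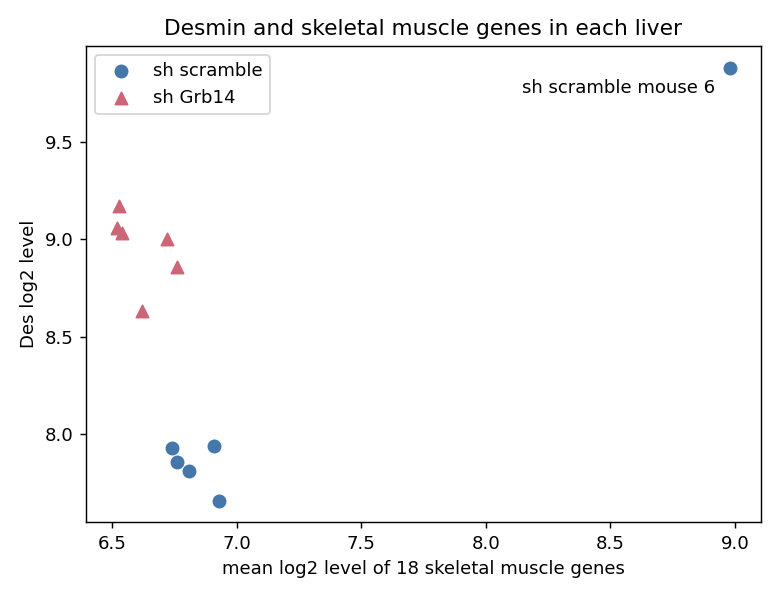
Des log2 level (vertical) against the mean log2 level of 18 skeletal muscle genes (horizontal) in each liver. Circles are sh scramble and triangles sh Grb14 livers. The sh scramble liver of mouse 6 lies alone at 8.98 and 9.88; the other arrays lie between 6.52 and 6.93 in the muscle list, and there all sh Grb14 livers have more Des than the 5 sh scramble livers.

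Vim encodes vimentin, an intermediate filament of mesenchymal cells and leukocytes. Its lowest, median and highest levels were 10.35, 10.53 and 10.79 in sh scramble livers and 12.63, 12.69 and 12.75 in sh Grb14 livers. The sh Grb14 livers were tightly grouped (SD 0.051) and stood apart from the controls. Vim rose 4.47-fold (log2 2.16, SE 0.065, limma adjusted p = 5.6e-14), rank 220 in the same order. The macrophage, T and NK cell and neutrophil lists given above rose in the same livers, and their part in the rise of Vim was not tested. Of 9 other intermediate filament genes and partners, 3 went up, 2 down and 4 missed the threshold (median change 0.10; 3 up and 4 down with centred arrays). Those that rose were the lamin genes Lmnb1 (1.26, SE 0.071) and Lmna (0.84, SE 0.049), whose products line the nucleus, and Nes, nestin (0.60, SE 0.084). Gfap, an intermediate filament of quiescent stellate cells and astrocytes, fell by 0.31 (SE 0.065), and Prph, peripherin, by 0.20 (SE 0.076).

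The 3 cytoskeletal genes did not move equally. Within each liver the Des level minus the Acta2 level had a mean of -0.77 ± 0.72 in sh scramble and -2.45 ± 0.16 in sh Grb14 livers (SD, n = 6 each), a shift of -1.68. Vim minus Des shifted by 1.38, from 2.35 ± 0.71 to 3.73 ± 0.18. For both pairs the adjusted exact permutation p was 0.00289, over 4 pairs tested. Leaving out sh scramble mouse 6 gave shifts of -1.40 and 1.09, with the same adjusted p. The exact p before adjustment was 0.00216, the smallest that 6 against 6 mice allow. With 1 mouse left out the smallest is the same, so the equal p is no measure of stability.

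Pdgfra and Pdgfrb encode the receptors for platelet-derived growth factor; the beta receptor is the one induced on activated stellate cells. Pdgfrb had lowest, median and highest levels of 8.70, 8.87 and 8.95 in sh scramble livers and 9.48, 9.77 and 9.81 in sh Grb14 livers, without overlap. It rose 1.81-fold (log2 0.86, SE 0.062, limma adjusted p = 2.92e-09). Pdgfra had 7.84, 7.99 and 8.15 in sh scramble livers against 8.05, 8.34 and 8.55 in sh Grb14 livers. The lowest sh Grb14 liver, mouse 2, lay within the range of the controls. Pdgfra rose by 0.35 (SE 0.082, limma adjusted p = 0.00167; exact permutation p = 0.00866), but by 0.18 when the arrays were quantile normalised again, which did not pass (limma adjusted p = 0.0936). Within each liver, Pdgfra minus Pdgfrb went from -0.86 ± 0.17 to -1.37 ± 0.071 (SD, n = 6 each), a shift of -0.51 (adjusted exact permutation p = 0.00289). The beta receptor gene therefore changed more than the alpha receptor gene.

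Among the ligands, Pdgfc rose by 1.24 (SE 0.064), Pdgfb, the main ligand of the beta receptor, by 0.74 (SE 0.064), and Pdgfd by 0.29 (SE 0.075; 0.14 with centred arrays, limma adjusted p = 0.0744). Pdgfa, which binds the alpha receptor, had a change of 0.023 that did not pass (limma adjusted p = 0.678; -0.12 and adjusted p = 0.0331 with centred arrays). In the list of 6 ligands and related genes 3 went up, 1 down and 2 missed the threshold (median change 0.23; 2 up and 2 down with centred arrays). The gene that fell was Nrp1, the coreceptor neuropilin 1 (-0.48, SE 0.081).

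**Figure D4:**
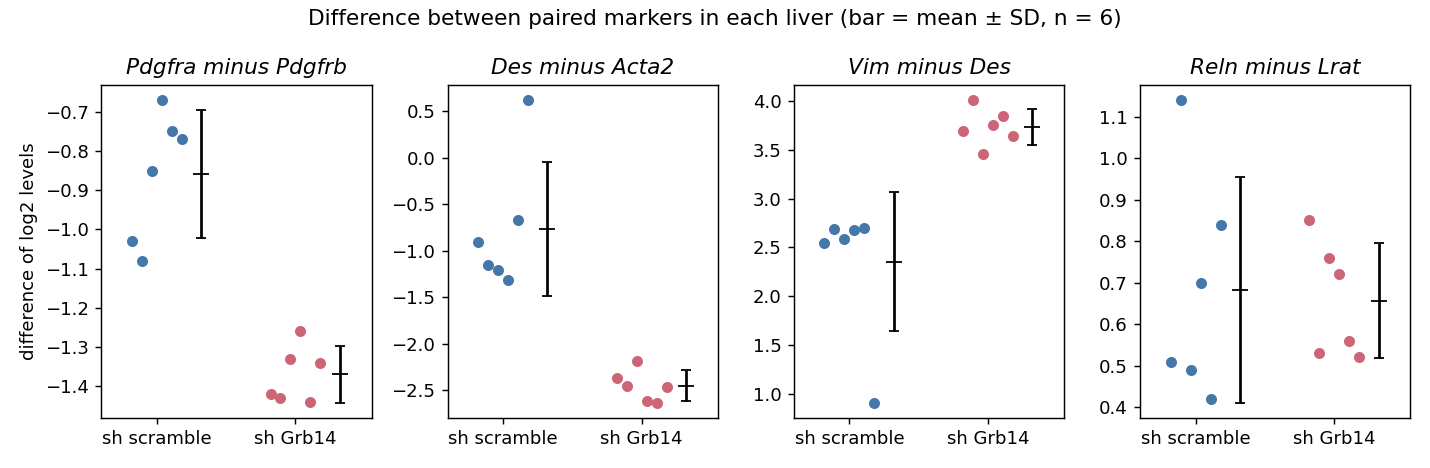
Difference between the log2 levels of paired genes within each liver, with the mean and SD of 6 livers. Blue points are sh scramble and red points sh Grb14 livers, and each panel has its own vertical axis. The first 3 differences separate the groups, while Reln minus Lrat has nearly the same mean in both (0.68 and 0.66).

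Tgfb1 encodes transforming growth factor beta 1, secreted in a latent form by macrophages, stellate cells and other cells. Its lowest, median and highest levels were 8.45, 8.67 and 8.74 in sh scramble livers and 10.04, 10.15 and 10.2 in sh Grb14 livers. The groups were far apart. Tgfb1 rose 2.87-fold (log2 1.52, SE 0.055, limma adjusted p = 4.96e-13). The macrophage list, 8 of 8 genes higher, moved with it, and its part in the rise was not tested.

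Of 30 measured genes of the TGF-beta pathway, 19 went up, 5 down and 6 missed the threshold, with a median change of 0.21 (13 up and 8 down with centred arrays). Thbs1, thrombospondin 1, which can release TGF-beta from its latent complex, rose 9.08-fold, from 7.40 ± 0.12 to 10.58 ± 0.24 (SD, n = 6 each). The ligand genes Tgfb3 and Tgfb2 rose by 1.36 (SE 0.072) and 1.01 (SE 0.058). Tgfbr2, the receptor that binds ligand first, rose by 1.06 (SE 0.050) and its partner Tgfbr1 by 0.19 (SE 0.054; 0.044 with centred arrays, limma adjusted p = 0.428). Itgav, the integrin chain that takes part in activating latent TGF-beta, rose by 0.78 (SE 0.045), while its partner Itgb8 had a change of 0.036 (-0.11 with centred arrays) that did not pass (limma adjusted p = 0.69). The TGF-beta induced genes Tgfbi and Pmepa1 rose by 1.19 (SE 0.052) and 0.80 (SE 0.072), and the inhibitor gene Smad7 by 0.35 (SE 0.12). The call for Smad7 was lost with centred (limma adjusted p = 0.0957) and with newly quantile normalised arrays (limma adjusted p = 0.0684). The falls with the greatest size were those of Ltbp4, a latent TGF-beta binding protein (-1.04, SE 0.067), Tgfbr3, betaglycan (-0.56, SE 0.057), and Smurf2, a ubiquitin ligase of the pathway (-0.38, SE 0.059).

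Lox encodes lysyl oxidase, the secreted enzyme that crosslinks collagen and elastin. Its lowest, median and highest levels were 5.83, 6.16 and 6.35 in sh scramble livers and 8.18, 8.70 and 8.96 in sh Grb14 livers. All sh Grb14 livers were above all controls. Lox rose 5.73-fold (log2 2.52, SE 0.12, limma adjusted p = 8.14e-12), rank 101 of all genes from the greatest rise down. Its sh scramble level lies close to the lower quartiles of the arrays (5.69 to 5.83), where a change can be understated. The related genes Loxl1, Loxl4 and Loxl3 rose by 0.91 (SE 0.072), 0.67 (SE 0.088) and 0.37 (SE 0.077). In the list of lysyl oxidase family and collagen crosslinking genes 10 of 13 measured genes went up, 2 down and 1 missed the threshold (median change 0.67; 9 up and 3 down with centred arrays, 11 up and 1 down after a new quantile normalisation). Plod2, which hydroxylates collagen lysines ahead of crosslinking, rose by 2.07 (SE 0.11), Tgm2, tissue transglutaminase, by 1.61 (SE 0.041), and Pcolce, which speeds the trimming of procollagen, by 0.97 (SE 0.055). Bmp1, the protease that does this trimming, fell by 0.57 (SE 0.046), while P4hb, a subunit of prolyl hydroxylase, changed by -0.074 (SE 0.030) and by 0.12 after a new quantile normalisation.

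Lrat encodes lecithin retinol acyltransferase, the enzyme that makes the retinyl esters stellate cells store. Its lowest, median and highest levels were 9.44, 9.90 and 10.09 in sh scramble livers and 9.18, 9.57 and 9.67 in sh Grb14 livers. The groups overlapped, and sh scramble mouse 2 was lower than 4 of the sh Grb14 livers. Lrat fell by 0.33 (SE 0.11, limma adjusted p = 0.0138; exact permutation p = 0.0368).

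The other retinoid genes, which make, store or break down vitamin A compounds, were counted as a list. Of 19 measured genes of retinoid storage and retinoic acid, 6 went up, 8 down and 5 missed the threshold, with a median change of -0.12 (5 up and 13 down with centred arrays, 5 up and 11 down after a new quantile normalisation). These shares past the test, 31.6% up and 42.1% down, lie near those of all genes, 25.8% and 39.5%. Without overlap of the groups, 6 of the 19 were lower and 4 higher, against 20.8% and 20.3% of all genes. The list means were 9.15 to 9.40 in sh scramble and 9.19 to 9.25 in sh Grb14 livers, which overlap. Retsat, retinol saturase, fell by 1.02 (SE 0.048), Stra6l, a receptor for retinol binding protein, by 0.86 (SE 0.054), and Rdh10, which oxidises retinol, by 0.75 (SE 0.038). Bco1, which cleaves beta-carotene, rose by 0.96 (SE 0.075), Cyp26a1, which breaks down retinoic acid, by 0.83 (SE 0.29), and Aldh1a2, which makes retinoic acid, by 0.57 (SE 0.071). Many of these genes are also active in hepatocytes, whose marker list fell in the same livers; its part in these changes was not tested.

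Reln encodes reelin, a secreted glycoprotein that in liver marks stellate cells. In sh scramble livers its levels lay within 10.49 to 10.58, with a median of 10.51. In sh Grb14 livers the lowest, median and highest levels were 9.71, 10.23 and 10.47. No sh Grb14 liver reached the controls, although the highest lay just below them, and the SD was 0.29 against 0.033. Reln fell by 0.35 (SE 0.098, limma adjusted p = 0.00509; exact permutation p = 0.00216). Reln minus Lrat had means of 0.68 ± 0.27 and 0.66 ± 0.14 (SD, n = 6 each), a shift of -0.026 that did not pass (adjusted exact permutation p = 0.868). These data do not show whether the falls of Reln and Lrat differ.

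The promoters of Tgfb1, which rose, and Reln, which fell, are shown side by side because they share a motif while their genes moved in opposite directions. Capitals mark GGGCGG on either strand, 5 matches in Tgfb1 and 6 in Reln, in the 250 bases before each start (RefSeq, GRCm38.p6, chr7:25686752-25687001, plus strand, and chr5:22344706-22344955, minus strand):
Tgfb1: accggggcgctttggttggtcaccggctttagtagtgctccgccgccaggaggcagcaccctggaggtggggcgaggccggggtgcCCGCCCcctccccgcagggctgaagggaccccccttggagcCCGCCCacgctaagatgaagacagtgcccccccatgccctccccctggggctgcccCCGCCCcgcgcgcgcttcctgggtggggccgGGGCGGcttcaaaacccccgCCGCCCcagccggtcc
Reln: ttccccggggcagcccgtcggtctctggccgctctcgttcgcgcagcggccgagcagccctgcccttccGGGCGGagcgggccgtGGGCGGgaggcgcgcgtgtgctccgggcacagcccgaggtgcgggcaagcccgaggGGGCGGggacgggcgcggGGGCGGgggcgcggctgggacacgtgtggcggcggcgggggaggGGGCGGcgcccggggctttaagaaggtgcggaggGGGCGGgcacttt
This motif, a binding site of the Sp1 family, was in 4 of the 7 promoters read (Des, Lrat, Tgfb1 and Reln) and in 32.7% of all promoters of this length. CAGAC, the core of Smad binding sites, was in 2 of the 7 (Acta2 and Pdgfra) and in 42.2% of all, and TGANTCA, the AP-1 site, was in 0 of the 7 and in 6.75% of all.

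Of 6 genes of the reelin pathway, 3 went up, 1 down and 2 missed the threshold (median change 0.20; 2 up and 3 down with centred arrays, 3 up after a new quantile normalisation). The receptor genes Vldlr and Lrp8 rose by 0.41 (SE 0.13; limma adjusted p = 0.0505 with centred arrays) and 0.36 (SE 0.063), and Fyn, a kinase of this and many other pathways that leukocytes also use, by 1.46 (SE 0.048). Dab1, the adapter that carries the signal, fell by 0.20 (SE 0.055; limma adjusted p = 0.0631 after a new quantile normalisation). Crk and Crkl had changes of 0.028 and -0.058 that did not pass (limma adjusted p = 0.628 and 0.242; -0.12 and -0.21 with centred arrays, where both passed).

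The wider gene lists for both states of the cell were read next. Of 27 measured genes of activated stellate cells and myofibroblasts 21 went up and 6 missed the threshold, with a median change of 1.19. Those that missed were Fn1, Fap (change 0.027), Cthrc1 (0.10), Tpm2 (0.13), Pdgfrl (0.16) and Islr (0.19). Fap passed after a new quantile normalisation (0.14, limma adjusted p = 0.0247). With centred arrays Fap, Cthrc1 and Tpm2 had changes below 0 that did not pass. None of the 27 had a change below 0, while centred arrays gave 19 up and 1 down. Timp1, an inhibitor of matrix proteases, rose 7.17-fold, from 6.59 ± 0.26 to 9.43 ± 0.20 (SD, n = 6 each). S100a6, a calcium-binding protein, rose by 2.38 (SE 0.12), and the collagen I genes Col1a1 and Col1a2 by 1.76 (SE 0.066) and 1.59 (SE 0.077). Leukocyte lists rose in the same livers, and their part in the rises of this list was not tested. Fn1, fibronectin, which hepatocytes also make in quantity, had a change of 0.015 that did not pass (limma adjusted p = 0.724). Its direction followed the scaling, with -0.13 in centred and 0.17 in newly quantile normalised arrays, both past the test. In a portal fibroblast list 4 of 8 genes went up and 4 missed the threshold (3 up and 3 down with centred arrays, 3 up and 2 down after a new quantile normalisation), with list means of 7.54 to 7.70 in sh scramble and 7.85 to 8.13 in sh Grb14 livers. Thy1 rose by 1.74 (SE 0.075) and Cd34 by 1.08 (SE 0.11), both also found on other cells. Thy1, Eln and Fbln2 are in the activated cell list too, so the counts of these lists are not independent.

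Of 17 measured genes of the quiescent cell 4 went up, 8 down and 5 missed the threshold (median change -0.17; 4 up and 12 down with centred arrays, 5 up and 11 down after a new quantile normalisation). These shares past the test, 23.5% up and 47.1% down, lie near the 25.8% and 39.5% of all genes. Without overlap of the groups, 7 of the 17 were lower and 3 higher, against 20.8% and 20.3% of all genes. The list means were 8.89 to 8.96 in sh scramble and 8.47 to 8.67 in sh Grb14 livers, without overlap. Vipr1, a receptor for vasoactive intestinal peptide, fell 4.17-fold (log2 -2.06, SE 0.050), Hhip, an inhibitor of hedgehog ligands, by 1.39 (SE 0.095), and the chemokine gene Cxcl12 by 1.30 (SE 0.073). Ecm1, an extracellular matrix protein, fell by 1.01 (SE 0.076). Ets1 rose by 0.71 (SE 0.055), Pparg, a nuclear receptor of fat storage, by 0.63 (SE 0.12), and Hgf, hepatocyte growth factor, by 0.62 (SE 0.082). Leukocyte lists rose and the hepatocyte list fell in the same livers, and their part in the changes of this list was not tested. Dcn, decorin, a proteoglycan that quiescent stellate cells express strongly, had a level of 12.6 in both groups and a change of 0.0031 that did not pass (limma adjusted p = 0.961), but it fell by 0.14 with centred arrays (limma adjusted p = 0.0138) and rose by 0.18 with newly quantile normalised arrays (limma adjusted p = 0.00762), so its direction followed the scaling.

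**Figure D5:**
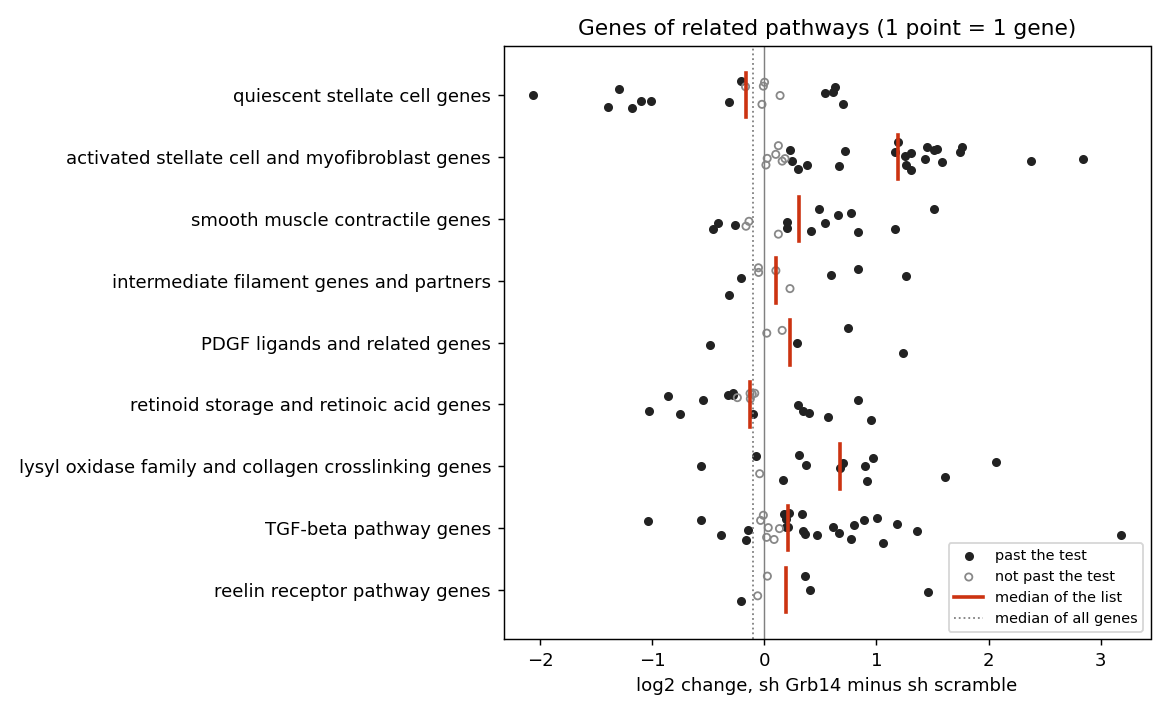
Log2 change, sh Grb14 minus sh scramble, of each measured gene in the 9 lists read beside the stellate cell genes. Filled points passed limma's test, red bars are list medians and the dotted line is the median of all genes, -0.10. The activated cell list and the crosslinking list have the highest medians (1.19 and 0.67), and the quiescent cell list the lowest (-0.17).

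Within the sh Grb14 group mouse 2 had the lowest level of 7 of the 9 genes (Acta2, Des, Pdgfra, Pdgfrb, Lrat, Lox and Reln), and mouse 4 the highest of 6 (Acta2, Pdgfra, Pdgfrb, Lrat, Lox and Tgfb1). In mouse 2 the mean of the activated cell list was 8.93 and that of the macrophage list 10.17, both the lowest of the group, and the hepatocyte list, at 12.76, was the highest. In mouse 4 these means were 9.29, 10.35 and 12.31, the highest, the highest and the lowest of the group. The macrophage means of the whole group spanned only 10.17 to 10.35. The neutrophil and the T and NK cell lists did not keep this order. The neutrophil list was highest in mouse 2 (7.91, against 7.89 in mouse 4). The T and NK cell list was lowest in mouse 1 (8.77) and highest in mouse 3 (9.09). Grb14 itself was highest of the group in mouse 2 (8.44) and lowest in mouse 4 (8.02). The part of Grb14 or of these cell lists in the spread was not tested. The other extremes fell elsewhere: Vim was lowest in mouse 3 and Tgfb1 in mouse 6, while Des was highest in mouse 3 and Vim and Reln in mouse 1. Lrat and Reln thus fell between the groups, yet within the sh Grb14 group the liver lowest in Acta2 and Lox was also lowest in both. Leaving out sh Grb14 mouse 2 and sh scramble mouse 6 together left Reln lower by 0.27 (limma adjusted p = 0.0083) and Lrat by 0.30 (limma adjusted p = 0.0215).

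Genes whose deviations from the group means over the 12 mice most resembled those of a stellate cell gene were sought among the other 19937. Each is the highest of that many correlations, so its size follows in part from the search, and no test is given. For Acta2 they were C7, a complement component (r = 0.963), Prrx1, a mesenchymal transcription factor (r = 0.910), and Bmpr2 (r = 0.909). For Des they were Myot, myotilin of skeletal muscle (r = 0.977), C130030K03Rik (r = 0.972) and Pygm, muscle glycogen phosphorylase (r = 0.968). Without sh scramble mouse 6 these fell to 0.538, 0.654 and 0.249. Pdgfra went with Ccdc80 (r = 0.937), Gnaq (r = 0.931) and Pdzrn4 (r = 0.914), and Pdgfrb with Padi2 (r = 0.900), 4933402J07Rik (r = 0.898) and Pde3a (r = 0.897). Reln went with Capn6 (r = 0.941), Plat, tissue plasminogen activator (r = 0.939), and Ecm1 (r = 0.938). The SD of Reln was 0.29 in sh Grb14 and 0.033 in sh scramble livers, so these correlations rest mainly on the sh Grb14 livers. Although their deviations were alike there, Reln and Ecm1 fell between the groups while Plat rose by 4.13 (SE 0.17) and Capn6 by 1.21 (SE 0.096). Vim was closest to Lpl, lipoprotein lipase (r = 0.950), Slc35g2 (r = 0.938) and Rpusd4 (r = 0.926). The neighbours of Tgfb1 were Cd200r3 (r = 0.906), 4921524L21Rik (r = 0.897) and Csf2ra, a receptor chain of myeloid cells (r = 0.890). Those of Lox were Smad5 (r = 0.911), Nuak2 (r = 0.908) and Atp6v1a (r = 0.886), and those of Lrat were Pld1 (r = 0.838), Klra5 (r = 0.833) and Pitpnc1 (r = 0.829). Some of the named genes were dim: C130030K03Rik, Pdzrn4, 4933402J07Rik, Cd200r3, 4921524L21Rik and Klra5. Their group means, 4.12 to 5.60, lay below the lower quartiles of the arrays (5.69 to 5.83), so their deviations may be largely noise.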

How the data were processed

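The deposited table holds log2 values for 35556 probe sets on 12 arrays, 6 per group, made from 100 ng of total RNA each. RMA, which corrects background, normalises and summarises probes, and the software Partek appear in the submitters' processing notes without a version or a stated role. Settings and genome build are not given in the sources used here, nor are scan batches, so a batch that followed the groups cannot be told apart from them. Of the probe sets 21789 had 1 symbol in the platform annotation, 1621 several and 12146 none listed; only the first kind was used, and for genes with several probe sets the one with the highest mean. The 19938 genes were fitted in R 4.3.3 with limma 3.58.1 (lmFit, eBayes with an intensity trend, no covariate, no filter; checked on simulated data), and p was adjusted by Benjamini-Hochberg over all of them. Unlike the arrays here, the simulated data had few changed genes, independent noise and equal spread in both groups. That check therefore cannot vouch for the fit in this setting. Exact permutation tests were two-sided over all 924 assignments of mice to groups, or 462 with 1 mouse left out. Of 5 planned pairs of genes 4 were tested, since Loxl2 had no probe set of its own. Replicates are mice by their labels, and 6 per group limits the precision.

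Named in the text are the measured stellate cell genes, from each list up to 3 genes past the test with the greatest change in each direction, genes tied to a stellate cell gene by role (receptor, ligand, target), and the 3 nearest genes of each. Fn1, Dcn, Msln, Ckm, Acta1, Alb, Cps1, Fap, Cthrc1, Islr, Pdgfrl and Tpm2 were added after their values were seen. Gene symbols come from the platform annotation, and promoter sequences from RefSeq tables of GRCm38.p6. The stellate cell genes and the lists were chosen with earlier results of these data known; the skeletal muscle list and the CArG match with 1 letter off were chosen after seeing the data. The alternatives were another scaling (centring or quantile), no intensity trend, a minimum mean level of 6, the mean of all probe sets, all probe sets tested, array weights, and leaving out mice.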

Additional observations from a re-analysis of the deposited data

Results flagged for a closer look

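Among the 20 sets of 6 livers examined (Grb14 and the 9 stellate cell genes in both groups), a single one held a liver far from the others: Des was 9.88 in sh scramble mouse 6, and the gap to the next liver was 0.874 of the group's range, above Dixon's critical value of 0.625. Chance alone marks about 1 in 20 such sets. On the same array the mean of 18 skeletal muscle genes was 8.98, against 6.52 to 6.93 on the other 11.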

How the results depend on the processing

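The direction and side of the threshold (for counts of genes, a value within 1.5 times) were kept in 621 of 656 recomputed values (30 results under 20 alternative settings, and 4 differences between genes under 14 of them). Acta2, Vim, Pdgfrb, Lox, Tgfb1, Lrat, Reln and Grb14 passed in the same direction under all of them; the adjusted p of Lrat reached 0.0348 and that of Reln 0.0186. Pdgfra was 0.18 after a new quantile normalisation and did not pass, and Des ranged from 0.68 to 1.12 when 1 mouse was left out. Centring each array on its median moved the median change of all genes from -0.10 to -0.25 and the share of rises among genes past the test from 39.5% to 23%. It raised the number of lower genes to 1 (activated cell list, from 0), 5 (smooth muscle, from 3), 4 (intermediate filaments, from 2), 2 (PDGF, from 1), 13 (retinoid, from 8), 8 (TGF-beta, from 5) and 3 (reelin pathway, from 1). Quantile normalisation gave 0 lower in the reelin pathway. In the crosslinking list the number lower was 1 after quantile normalisation, without the trend, with array weights, and without sh scramble mouse 6 and sh Grb14 mouse 2 together, an alternative chosen after seeing the data; that alternative also gave 1 in the intermediate filament list. Array weights gave 5 lower in the smooth muscle list. Leaving out 1 mouse gave 2 to 5 lower in the smooth muscle list, 1 to 2 in the intermediate filament list and 1 to 2 in the crosslinking list. The shift of Reln minus Lrat was 0.054 after quantile normalisation and between -0.080 and 0.066 with 1 mouse left out. The cause of these moves was not tested. The mouse numbers used here follow the order of the arrays within each group, so equal numbers do not mark pairs. No paired analysis was possible because the labels of the mice share no numbers between the groups. No detection call was made, so changes of dim genes can be understated.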

Other observations

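Other cells around the stellate cell were read from marker lists as well. Among 7 genes of the liver sinusoidal endothelium 4 were higher and 3 lower. Lyve1, a hyaluronan receptor, rose by 1.14 (SE 0.075), while Clec4g, a sinusoidal lectin, fell by 0.85 (SE 0.057) and Kdr, the VEGF receptor 2 gene, by 0.76 (SE 0.058). Of 4 mesothelial genes 3 fell, with Upk3b lower by 0.55 (SE 0.083), and Msln passed with centred or newly quantile normalised arrays alone. In the Kupffer cell list Cd5l rose by 1.79 (SE 0.079) and 4 of 5 genes did not pass (1 up and 1 down with centred arrays). Epcam rose by 0.48 (SE 0.082) in the cholangiocyte list, where the other 4 did not pass (1 up and 1 down with centred arrays, 2 up after a new quantile normalisation). All 3 measured B cell genes rose, by at most 0.40, although Cd79a did not pass with centred arrays. With all 12 mice, 4 of the 18 skeletal muscle genes were lower and 14 missed the threshold, while 9 were lower with centred arrays.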
